A study of Mus musculus with 14 samples.

Results

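The genes described here encode the nuclear subunits of the oxidative phosphorylation machinery of mitochondria, measured as RNA in mouse CD4+ T cells. They were taken by symbol from the deposited tables. Symbols that begin, in any case, with Ndufa, Ndufb, Ndufc, Ndufs, Ndufv, Uqcr, Cox4 to Cox8 or Atp5 were taken, and so were Sdha to Sdhd and Cyc1, while the assembly factors named Ndufaf and pseudogenes were left out. These symbols took 97 transcripts of 87 genes. Of the 87 genes, 82 had a mean of 1 FPKM (fragments per kilobase of transcript, scaled to the reads of the library) or more in at least 1 culture medium, and these 82 are among 11448 genes tested. They hold 36 subunits of complex I, 4 of complex II, 9 of complex III, 15 of complex IV and 15 of complex V. The 3 others carry symbols that the prefixes take but encode no subunit: Dmac2, which the tables call ATP5SL, Dmac2l, called ATP5S, and Emc8, called COX4NB. Just above the level filter stood Cox6a2, with a highest medium mean of 2.52 FPKM, and Dmac2l with 3.77, and just under it Cox4i2 with 0.219 and Cox8c with 0.0952.

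Naive CD4+ T cells of C57BL/6 mice, sorted as CD62L high, CD44 low and CD25 negative, were stimulated by plate-bound anti-CD3 and anti-CD28 at 10 μg/ml each and collected after 3 days. The 7 media share that stimulation and differ in what was added, and each has 2 libraries. IL27_plus_TGF_beta cells received IL-27 at 20 ng/ml, TGF-β at 2 ng/ml and antibodies to IFN-γ, IL-2 and IL-4. iTreg cells received TGF-β at 20 ng/ml, IL-2 at 50 U/ml and an antibody to IFN-γ. In the Th17_b medium were IL-6 at 20 ng/ml, TGF-β at 2 ng/ml, an antibody to IFN-γ and an antibody to IL-2 at 10 μg/ml. Th17_23 cells received IL-1β and IL-6 at 20 ng/ml each, IL-23 at 50 ng/ml, antibodies to IFN-γ and IL-2, and 5 μg/ml each of an antibody to TGF-β1 and one to TGF-β2/1.2. Th1 cells received IL-12 at 20 ng/ml with anti-IL-4 at 10 μg/ml, and Th2 cells IL-4 at 20 ng/ml with anti-IFN-γ at 10 μg/ml. No cytokine was added to Th0 cells, whose medium held anti-IL-2, anti-IL-4 and anti-IFN-γ. The labels give no mouse age or sex and do not say whether the 2 libraries of a medium came from separate cultures or animals, so the p-values rest on a spread between libraries that may be technical.

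Complexes I to IV form the electron transport chain of the inner mitochondrial membrane. Complex I takes electrons from NADH and complex II from succinate, complex III passes them from ubiquinol to cytochrome c, complex IV hands them to oxygen, and complex V, the ATP synthase, uses the proton gradient to make ATP. Nuclear genes encode most subunits and mitochondrial DNA the others, whose transcripts are not analysed here. T cells raise glycolysis when activated, while regulatory and memory T cells are known for their use of mitochondrial respiration. The RNA levels below measure neither protein nor respiration, and in bulk RNA fewer cells of a type and less RNA per cell cannot be told apart.

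Promoter windows are printed for 5 members whose levels the text returns to. Ndufab1, Atp5g1 and Ndufa3 were called lower in iTreg than in Th0, and Cox7a2l and Ndufa6 higher. Each run is reference sequence from RefSeq, build GRCm38.p6, 5′ to 3′ on the gene's strand, from 150 bases before to 30 bases after the annotated start, and capitals mark motif matches on either strand.
Ndufab1, chr7:122101819-122101998, minus strand: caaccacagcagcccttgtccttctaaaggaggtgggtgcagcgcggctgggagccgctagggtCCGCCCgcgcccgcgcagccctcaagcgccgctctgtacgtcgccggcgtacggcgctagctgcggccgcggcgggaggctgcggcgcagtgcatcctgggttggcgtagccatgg
Atp5g1, chr11:96075602-96075781, minus strand: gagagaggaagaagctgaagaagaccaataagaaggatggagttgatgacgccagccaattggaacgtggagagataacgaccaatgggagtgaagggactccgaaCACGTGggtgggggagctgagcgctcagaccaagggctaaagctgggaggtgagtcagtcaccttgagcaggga
Ndufa3, chr7:3617223-3617402, plus strand: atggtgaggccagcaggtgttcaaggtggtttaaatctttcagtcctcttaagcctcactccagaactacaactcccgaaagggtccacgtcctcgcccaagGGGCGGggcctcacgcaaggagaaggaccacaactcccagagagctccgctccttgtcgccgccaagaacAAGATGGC
Cox7a2l, chr17:83514304-83514483, minus strand: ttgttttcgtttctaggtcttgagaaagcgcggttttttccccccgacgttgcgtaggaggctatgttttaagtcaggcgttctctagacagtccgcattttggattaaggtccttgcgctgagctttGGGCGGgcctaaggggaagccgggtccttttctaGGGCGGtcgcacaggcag
Ndufa6, chr15:82354262-82354441, minus strand: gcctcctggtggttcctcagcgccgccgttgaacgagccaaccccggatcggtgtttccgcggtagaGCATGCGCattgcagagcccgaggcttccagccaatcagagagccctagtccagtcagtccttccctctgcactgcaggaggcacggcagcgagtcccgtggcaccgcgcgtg
The capitals are a match to the SP1 box GGGCGG in Ndufab1, to the E box CACGTG in Atp5g1, to the SP1 box and the YY1 motif AAGATGGC in Ndufa3, to the SP1 box at 2 places in Cox7a2l and to the NRF-1 motif GCGCATGC in Ndufa6.

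In the window from 250 bases before to 50 after the start, which RefSeq gives for 66 of the 79 subunit genes, the NRF-1 motif was in 10 promoters, or 15.2%, against 6.25% of the promoters of all genes tested. The YY1 motif was also in 10, or 15.2%, against 5.64%. NRF-1 and YY1 are transcription factors known to act on respiratory chain genes. The ETS and GABP motif CCGGAAG was in 24.2% against 21.6%, and the E box in 9.09% against 12.1%. The SP1 box was less frequent, at 40.9% against 69.5%. The palindromic CRE motif TGACGTCA was in 4 subunit promoters, or 6.06% against 3.79%, those of Ndufa10, Ndufa11, Ndufb2 and Uqcrfs1. Both strands were searched and motifs may overlap. A match is a description of letters, and no test was made.

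In the libraries other than replicate 1 of Th0, 66.6% to 74.2% of the ratios of low FPKM values to it lay within 1% of a ratio of whole reads up to 6, which gave replicate 1 libraries a depth of 0.943 to 1.05 and replicate 2 libraries one of 0.755 to 0.839, relative to replicate 1 of Th0. Each library listed 10260 to 10628 genes at 1 FPKM or more. The T cell marker Cd3d stood at 145 to 241 FPKM and Cd4 at 137 to 262 in all libraries. Of the markers of other cells, the myeloid marker Lyz2 was listed at 0 in all 14 libraries, and the dendritic cell marker Itgax reached at most 0.0433 FPKM. Of 17 such markers, 13 stayed under 1 FPKM in every library, and Cd79a, Cd79b, Itgam and the CD8 T cell marker Cd8b1 did not. Summed, the 17 markers had 3.32 to 3.57 FPKM in IL27_plus_TGF_beta, 7.89 to 9.85 in iTreg, 5.92 to 6.58 in Th17_b, 5.98 to 8.45 in Th17_23, 6.88 to 7.49 in Th1, 7.79 to 9.20 in Th2 and 9.02 to 9.88 in Th0. On average Cd8b1 alone made up most of that sum in every medium, so the sums mainly follow this marker. Itgam, a myeloid integrin, averaged 1.72 FPKM in iTreg and 0.526 in Th0, and its part in the results was not tested.

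The subunit genes together took their smallest share of all FPKM in iTreg and their largest in Th17_23. The summed FPKM of the 79 subunits made up 2.28% and 2.33% of all FPKM in the IL27_plus_TGF_beta libraries, 1.84% and 1.97% in iTreg and 2.17% and 2.30% in Th17_b. The share was 2.65% and 2.77% in Th17_23, 2.48% and 2.32% in Th1, 2.39% and 2.14% in Th2, and 2.42% and 2.36% in Th0. Both iTreg libraries lay under all others and both Th17_23 libraries above all others. Complex II took 0.0505% ± 0.00156 in iTreg, 0.0770% ± 0.000164 in Th17_23 and 0.0677% ± 0.00179 in Th0 (SD, n = 2 each). Complex V took 0.653% ± 0.0288 in iTreg, 1.00% ± 0.0159 in Th17_23 and 0.873% ± 0.0281 in Th0. Of the 79 subunits, 49 had their lowest medium mean in iTreg, 17 in Th17_b and 8 in IL27_plus_TGF_beta, and 48 had their highest in Th17_23 and 11 in Th1. Shares and ranks are descriptions with no test.

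**Figure D1:**
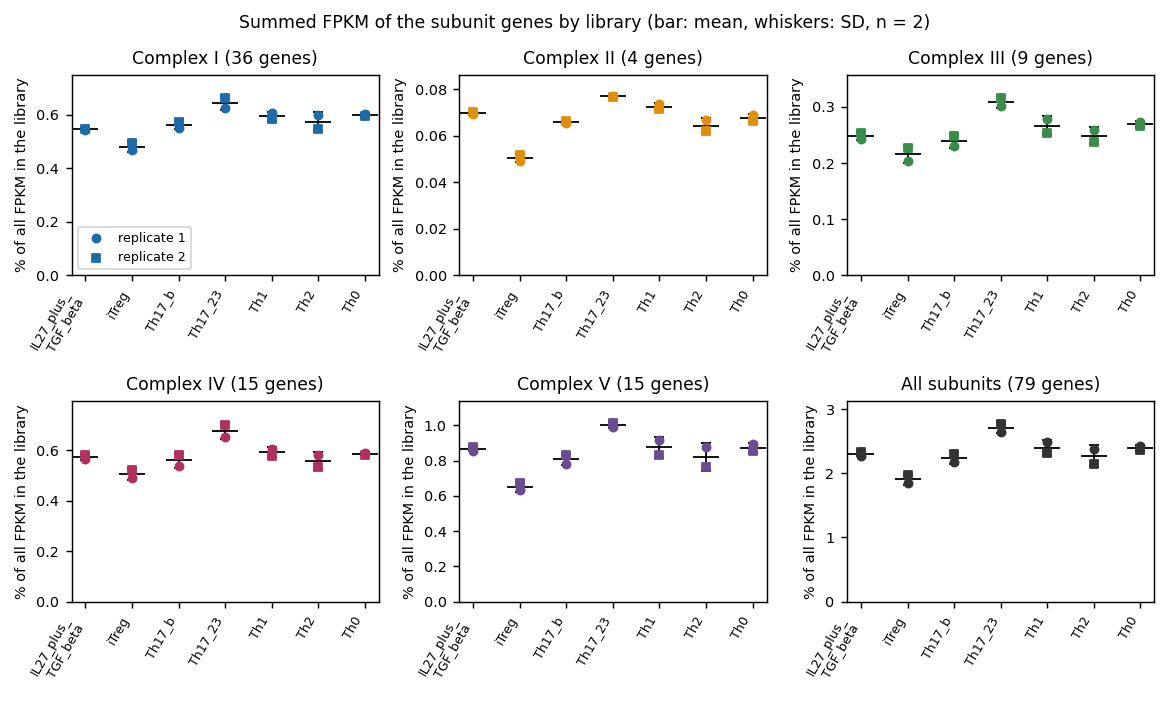
Summed FPKM of the subunit genes of each complex, as a percentage of all FPKM of the library, in the 7 media. Circles are replicate 1, squares replicate 2, bars the mean and whiskers the SD (n = 2). In the panel of all subunits, iTreg has 1.84% and 1.97%, Th17_23 2.65% and 2.77% and Th0 2.42% and 2.36%.

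In iTreg, subunit genes of all complexes fell relative to Th0. Of the 82 genes, limma called 60 lower and 6 higher, that is 73.2% and 7.32%, where over all genes tested 41.0% were lower and 22.7% higher. Calls were made at 0.05 on the adjusted p over all genes tested. Each change is a difference of log2(FPKM + 1) ± SE, a scale that understates changes of low genes. The median change of the 82 genes was -0.41, against -0.13 over all genes. Quantile normalization and scaling to 1 median both bring that of all genes to -0.02 and leave the median of the 82 genes at -0.27 and -0.28. Of the 82 genes, 49 and 53 were then lower, or 59.8% and 64.6%, against 34.0% and 34.3% of all genes. The lower genes were 24 of 36 in complex I, all 4 in complex II, 7 of 9 in complex III, 11 of 15 in complex IV and 13 of 15 in complex V. For 67 of the 82 genes, or 81.7%, both iTreg libraries were under both Th0 libraries, as they were for 48.3% of all genes tested. Fewer genes were lower without iTreg replicate 1, the library with the lower share, where the median was -0.31, against -0.11 over all genes. Fewer were higher without Th0 replicate 2.

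In complex I, Ndufab1, the mitochondrial acyl carrier protein that is also a complex I subunit, had 59.0 and 59.1 FPKM in IL27_plus_TGF_beta, 29.1 and 37.2 in iTreg, 43.5 and 47.6 in Th17_b, 76.4 and 86.3 in Th17_23, 77.3 and 59.7 in Th1, 72.1 and 60.5 in Th2 and 67.5 and 68.0 in Th0. Both iTreg libraries were under the other 12, and the change from Th0 in iTreg was -1.02 ± 0.15, adjusted p = 0.00027. Ndufs7, a core subunit that carries an iron-sulfur cluster, had 36.3 and 42.2 FPKM in iTreg and 64.6 and 74.0 in Th0 (-0.81 ± 0.10, adjusted p = 9.9e-05). Ndufa5, an accessory subunit of the matrix arm, had 23.6 and 25.7 in iTreg and 50.9 and 43.0 in Th0 (-0.90 ± 0.16, adjusted p = 0.00098). Ndufs7 and Ndufa5 were chosen after their values were seen. Ndufa7, an accessory subunit and 1 of the 3 most abundant of the complex, fell too, to 101 ± 18.2 FPKM in iTreg against 155 ± 14.9 in Th0 (-0.62 ± 0.13, adjusted p = 0.0024). Ndufa3, the most abundant, averaged 155 ± 22.3 FPKM in iTreg and 198 ± 13.1 in Th0 (-0.36 ± 0.11, adjusted p = 0.017). Its call was lost with quantile normalization (adjusted p = 0.105) and without iTreg replicate 1 (adjusted p = 0.137), Th0 replicate 1 (adjusted p = 0.062) or Th0 replicate 2 (adjusted p = 0.081).

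All members of complex II, which is also the succinate dehydrogenase of the tricarboxylic acid cycle, fell in iTreg. Sdha, the flavoprotein with the active site, had 74.3 and 75.3 FPKM in iTreg and 93.9 and 92.0 in Th0 (-0.31 ± 0.06, adjusted p = 0.00095; -0.13, adjusted p = 0.053 with quantile normalization). Sdhb, the iron-sulfur subunit, had 73.2 and 89.3 in iTreg and 110.3 and 118 in Th0 (-0.49 ± 0.09, adjusted p = 0.00097). The groups did not overlap for either gene. The membrane anchors changed by -0.45 ± 0.11, adjusted p = 0.0055 for Sdhc and by -0.50 ± 0.12, adjusted p = 0.0045 for Sdhd. Without iTreg replicate 1, Sdhc missed the threshold (-0.33, adjusted p = 0.055).

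In complex III, Uqcrq and Uqcr10, small subunits of the membrane part, were among those that fell. Uqcrq had 76.4 and 98.9 FPKM in iTreg and 161 and 166 in Th0 (-0.90 ± 0.18, adjusted p = 0.0015), and Uqcr10 had 127 and 139 in iTreg and 243 and 223 in Th0 (-0.81 ± 0.12, adjusted p = 0.00039). Both genes had their lowest levels of the series in the iTreg libraries. Uqcrh, the hinge protein, which the tables list as UQCRHL and which was matched to mouse Uqcrh by its accession, was not called, at 371 and 447 FPKM in iTreg and 362 and 373 in Th0. It is the most abundant member of the complex. In complex V, Atp5b, the catalytic beta subunit and the most abundant of all members, had 623 and 639 FPKM in IL27_plus_TGF_beta, 351 and 414 in iTreg, 439 and 478 in Th17_b, 744 and 779 in Th17_23, 708 and 582 in Th1, 593 and 502 in Th2 and 594 and 569 in Th0. The iTreg libraries were the lowest of the series, and the change from Th0 was -0.61 ± 0.12, adjusted p = 0.0015.

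**Figure D2:**
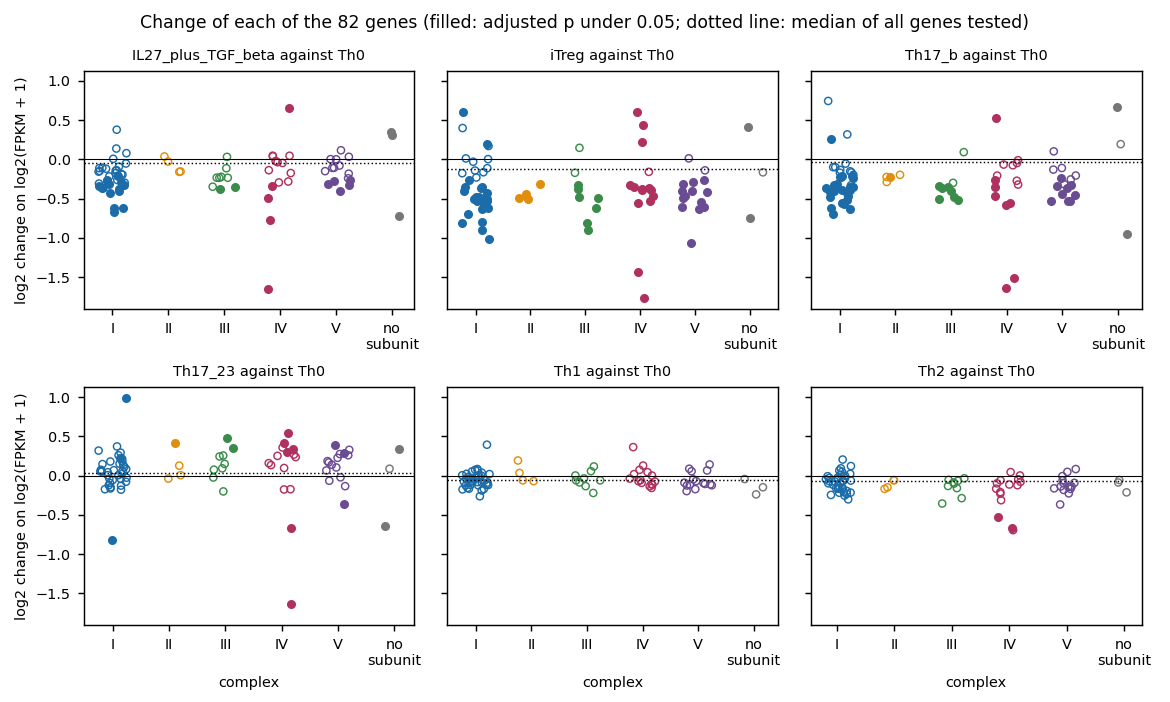
Log2 change of each of the 82 genes in 6 media against Th0, on the log2(FPKM + 1) scale, by complex. Filled points passed an adjusted p under 0.05 in limma and the dotted line is the median of all genes tested. In iTreg 60 points are filled below 0 and 6 above, in Th17_b 48 and 3, and in Th1 no point is filled.

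The c ring of the ATP synthase, which turns as protons pass, is encoded by Atp5g1, Atp5g2 and Atp5g3. These genes encode the same mature protein behind different import signals. Atp5g1 had 101 and 108 FPKM in IL27_plus_TGF_beta, 46.2 and 64.5 in iTreg, 73.0 and 86.9 in Th17_b, 129 and 134 in Th17_23, 106 and 95.3 in Th1, 99.0 and 80.8 in Th2 and 116 and 116 in Th0. Its iTreg libraries were the lowest and its Th17_23 libraries the highest, and the change from Th0 in iTreg was -1.07 ± 0.15, adjusted p = 0.00023. Atp5g3 changed by -0.63 ± 0.13, adjusted p = 0.0024 in iTreg, where it had 276 and 313 FPKM, against 467 and 446 in Th0. Atp5g2 was the most abundant of the c ring genes in iTreg, with 354 and 427 FPKM, against 485 and 483 in Th0 (-0.32 ± 0.10, adjusted p = 0.023). That call was lost with scaling to 1 median (adjusted p = 0.069), when only these media were fitted (adjusted p = 0.072), and without iTreg replicate 1 (adjusted p = 0.185), Th0 replicate 1 (adjusted p = 0.13) or Th0 replicate 2 (adjusted p = 0.054). Reads that such copies share can be split between them in ways the sources used here do not give, so the c ring levels are uncertain.

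Of the 87 genes, 8 had more than 1 transcript, and Atp5g1 is 1 of them. Its transcript that was less abundant in Th0 had 58.9 and 57.2 FPKM in Th17_23, against 22.7 and 23.9 in Th0. The groups were far apart, and in a fit over single transcripts, added after the results were seen, the change was 1.28 ± 0.17 (adjusted p = 0.00052). The other transcript had 69.9 and 77.1 FPKM in Th17_23 against 92.8 and 92.0 in Th0 and was not called (-0.33 ± 0.16, adjusted p = 0.14; with quantile normalization -0.46, adjusted p = 0.013). In that fit, 21.0% of 14238 transcripts were higher in Th17_23 and 17.7% lower. The sum over both transcripts was not called in this comparison.

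Among the genes called higher in iTreg, Cox7a2l and Dmac2 kept the call in all alternatives. Cox7a2l, a relative of the complex IV subunit Cox7a2 that joins complexes III and IV into supercomplexes and of which C57BL/6 mice carry a shortened form, had 161 and 160.3 FPKM in IL27_plus_TGF_beta, 307 and 312 in iTreg, 182 and 198 in Th17_b, 131 and 156 in Th17_23, 209 and 218 in Th1, 219 and 221 in Th2 and 226 and 229 in Th0. Both iTreg libraries were above the other 12, and the IL27_plus_TGF_beta and Th17_23 libraries were the lowest 4. Relative to Th0, Cox7a2l rose in iTreg (0.44 ± 0.07, adjusted p = 0.00053) and fell in IL27_plus_TGF_beta (-0.50 ± 0.07, adjusted p = 0.00034) and in Th17_23 (-0.67 ± 0.07, adjusted p = 8.6e-05). In IL27_plus_TGF_beta against iTreg the change was -0.94 ± 0.07, adjusted p = 3.6e-06. Cox7a2 itself had 64.9 and 83.5 FPKM in Th17_b and 123 and 150.2 in Th17_23 (-0.88 ± 0.13, adjusted p = 0.00051 for Th17_b against Th17_23), a comparison in which Cox7a2l rose (0.41 ± 0.07, adjusted p = 0.0013).

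Ndufa6, an accessory subunit of complex I that binds the acyl carrier protein Ndufab1, had 91.5 and 95.7 FPKM in IL27_plus_TGF_beta, 150.4 and 179.9 in iTreg, 102 and 116 in Th17_b, 73.4 and 88.8 in Th17_23, 120.5 and 135 in Th1, 152 and 155 in Th2 and 132 and 157 in Th0. It was lowest in Th17_23 and IL27_plus_TGF_beta, and it fell relative to Th0 by 0.82 ± 0.07 on the log2 scale in Th17_23 (adjusted p = 2.9e-05) and by 0.61 ± 0.07 in IL27_plus_TGF_beta (adjusted p = 0.00011). In iTreg the libraries overlapped with those of Th0. The call there, 0.19 ± 0.07, adjusted p = 0.046, was lost when any of the 4 libraries was left out (0.14 to 0.24, adjusted p = 0.054 to 0.23), with no replicate block (adjusted p = 0.22), with no filter on low values (adjusted p = 0.054) and when only these media were fitted (adjusted p = 0.11). Cox4i1, Cox7a1 and Dmac2 were also called higher in iTreg.

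**Figure D3:**
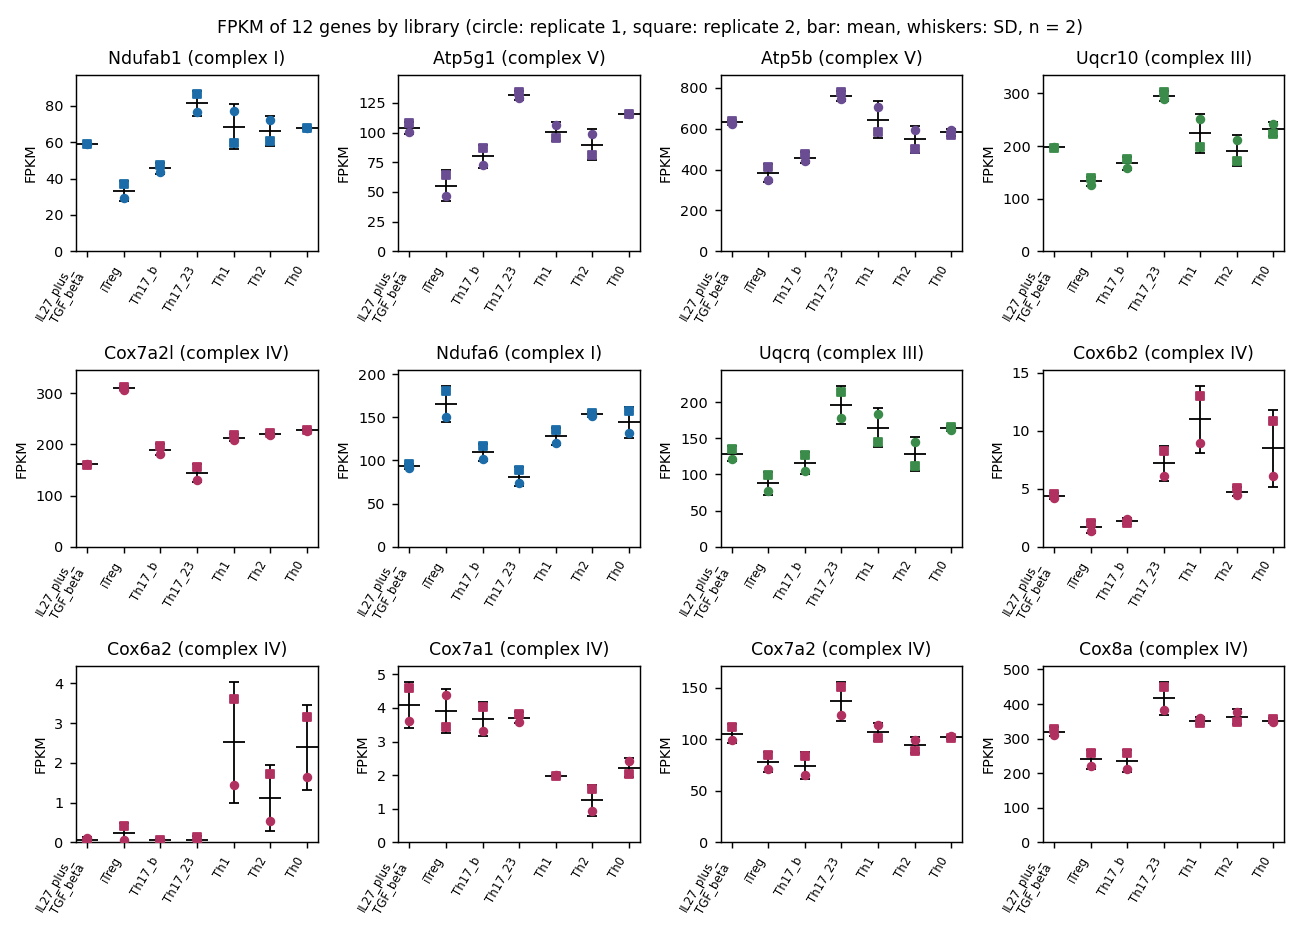
FPKM of 12 members in the 14 libraries. Circles are replicate 1, squares replicate 2, bars the mean and whiskers the SD (n = 2). Ndufab1, Atp5g1, Atp5b and Uqcr10 have their lowest mean in iTreg and their highest in Th17_23, and Cox7a2l and Ndufa6 the highest in iTreg and the lowest in Th17_23.

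Th17_b cells, which had TGF-β with IL-6, also had lower subunit RNA than Th0. Of the 82 genes, 48 fell and 3 rose, 58.5% and 3.66%, while over all genes 29.2% fell and 25.5% rose. The median was -0.32, against -0.03 over all genes. The genes that fell were 23 of 36 in complex I, 1 of 4 in complex II, 7 of 9 in complex III, 7 of 15 in complex IV and 9 of 15 in complex V. Single libraries bear on these counts: fewer genes fell when any 1 library of these media was left out. Their share stayed above that of all genes, but lay close to it without Th17_b replicate 1. Fewer rose without Th17_b replicate 2 or Th0 replicate 2. The median was -0.235 and -0.396 without Th17_b replicate 1 and 2, and -0.287 and -0.34 without Th0 replicate 1 and 2.

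Among the members that fell, Cox8a, a small subunit of complex IV, had 213 and 258 FPKM in Th17_b and 347 and 358 in Th0 (-0.59 ± 0.10, adjusted p = 0.00091). Uqcrc2, a core subunit of complex III chosen after its values were seen, had 75.1 and 82.0 in Th17_b and 108 and 117 in Th0 (-0.52 ± 0.08, adjusted p = 0.00054). Neither gene's groups overlapped. Ndufb4, an accessory subunit of the membrane arm of complex I, had 62.3 and 69.7 in Th17_b and 101 and 113 in Th0 (-0.69 ± 0.11, adjusted p = 0.00067). Ndufs7 changed by -0.56 ± 0.10, adjusted p = 0.00097 and Sdha by -0.23 ± 0.06, adjusted p = 0.0064. Ndufab1 was at 43.5 and 47.6 FPKM in Th17_b (-0.56 ± 0.15, adjusted p = 0.0095), and missed the threshold without Th17_b replicate 1 (-0.49, adjusted p = 0.073). Atp5g2 fell too, to 334 ± 26.0 FPKM in Th17_b against 484 ± 1.56 in Th0 (-0.53 ± 0.10, adjusted p = 0.0018).

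Th17_23 cells had IL-6 with IL-1β and IL-23 and antibodies to TGF-β, and most of their subunit genes were not called against Th0. As deposited, 12 of the 82 genes rose and 5 fell, 14.6% and 6.10%, where 26.6% of all genes rose and 23% fell, and the median was 0.10 against 0.03 over all genes. Fitting only these media gave 21 higher, a share of 25.6% against 25.5% of all genes, and no filter on low values gave 4, or 4.88% against 17.0%. Quantile normalization gave 8 higher and 19 lower with a median of -0.01, against -0.03 over all genes, and scaling to 1 median gave 16 higher and 8 lower with a median of 0.06. With either scaling, the shares of higher and of lower genes lay under those of all genes. Without Th17_23 replicate 2 the median was 0.05. The count of higher genes also rests on every library of this comparison. It fell when any 1 of them was left out, and its share stayed under that of all genes. For 44 of the 82 genes, or 53.7%, both Th17_23 libraries were above both Th0 libraries, as they were for 40.3% of all genes.

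The genes that rose in Th17_23 included Sdhd, with 97.5 and 102 FPKM in Th17_23 and 75.2 and 73.3 in Th0 (0.42 ± 0.12, adjusted p = 0.015), and Cox7a2, with 123 and 150.2 in Th17_23 and 103 and 101 in Th0 (0.42 ± 0.13, adjusted p = 0.027). Atp5b was called as well (0.39 ± 0.12, adjusted p = 0.022). Each of these calls was lost when single libraries were left out. Sdhd and Atp5b missed the threshold without any of the 4 libraries in turn, at 0.38 to 0.46 (adjusted p = 0.0509 to 0.0915) and 0.34 to 0.44 (adjusted p = 0.061 to 0.13), and Cox7a2 without Th0 replicate 1, Th0 replicate 2 or Th17_23 replicate 2 (0.31 to 0.49, adjusted p = 0.060 to 0.18). Sdhd kept its call in the other alternatives, Atp5b and Cox7a2 missed it with no filter (adjusted p = 0.053 and 0.056), and Cox7a2 with quantile normalization (adjusted p = 0.056). Ndufs5, an accessory subunit of complex I, had the largest rise of the 12 (0.99 ± 0.29, adjusted p = 0.02), with 60.2 and 69.3 FPKM in Th17_23 and 47.6 and 21.4 in Th0. The Th0 libraries lie far apart here, and without Th0 replicate 2 the change was 0.55, adjusted p = 0.19, and without Th17_23 replicate 2 0.67, adjusted p = 0.17. It also missed the threshold with no filter on low values (adjusted p = 0.0503) and when only these media were fitted (adjusted p = 0.0704). The 5 genes counted as lower were Atp5g2, Cox7a2l, Ndufa6, Dmac2l and Cox6a2. Cox6a2 passed the level filter only through media where it was higher, Th0 among them, so its call is not read as a test. Atp5g2 missed the threshold without Th17_23 replicate 1 (-0.27) or Th0 replicate 1 (-0.32).

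Th17_b and Th17_23, which differ in TGF-β and its antibodies and in IL-1β and IL-23, were also set directly against each other. In Th17_b against Th17_23, 57 of 82 genes were lower and 3 higher, 69.5% and 3.66%, while 32.5% of all genes were lower and 23.5% higher. The median was -0.41 against -0.07 over all genes. For 64 of the 82 genes, or 78.0%, both Th17_b libraries were under both Th17_23 libraries, as they were for 44.7% of all genes. The lower genes were 23 of 36 in complex I, 3 of 4 in complex II, 7 of 9 in complex III, 11 of 15 in complex IV and 13 of 15 in complex V. Quantile normalization left 43 lower, or 52.4% against 28.8% of all genes, with a median of -0.21. Fewer genes were lower without Th17_b replicate 1 or Th17_23 replicate 2. The medians were then -0.33 and -0.35, against -0.05 and -0.06 over all genes.

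In that comparison Uqcr10 had 159 and 176 FPKM in Th17_b and 289 and 303 in Th17_23 (-0.82 ± 0.12, adjusted p = 0.00049). Cox8a had 213 and 258 in Th17_b and 382 and 450.4 in Th17_23 (-0.82 ± 0.10, adjusted p = 0.00014), and Atp5b had 439 and 478 in Th17_b and 744 and 779 in Th17_23 (-0.73 ± 0.12, adjusted p = 0.00074). The libraries of these media were well separated for each of them. Ndufab1 changed by -0.82 ± 0.15, adjusted p = 0.0013, Sdhd by -0.71 ± 0.12, adjusted p = 0.00085 and Cox7a2 by -0.88 ± 0.13, adjusted p = 0.00051. The calls of these 6 genes held in all alternatives. The genes that were higher in Th17_b were Cox7a2l, Ndufa6 (0.43 ± 0.07, adjusted p = 0.0011) and Dmac2.

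**Figure D4:**
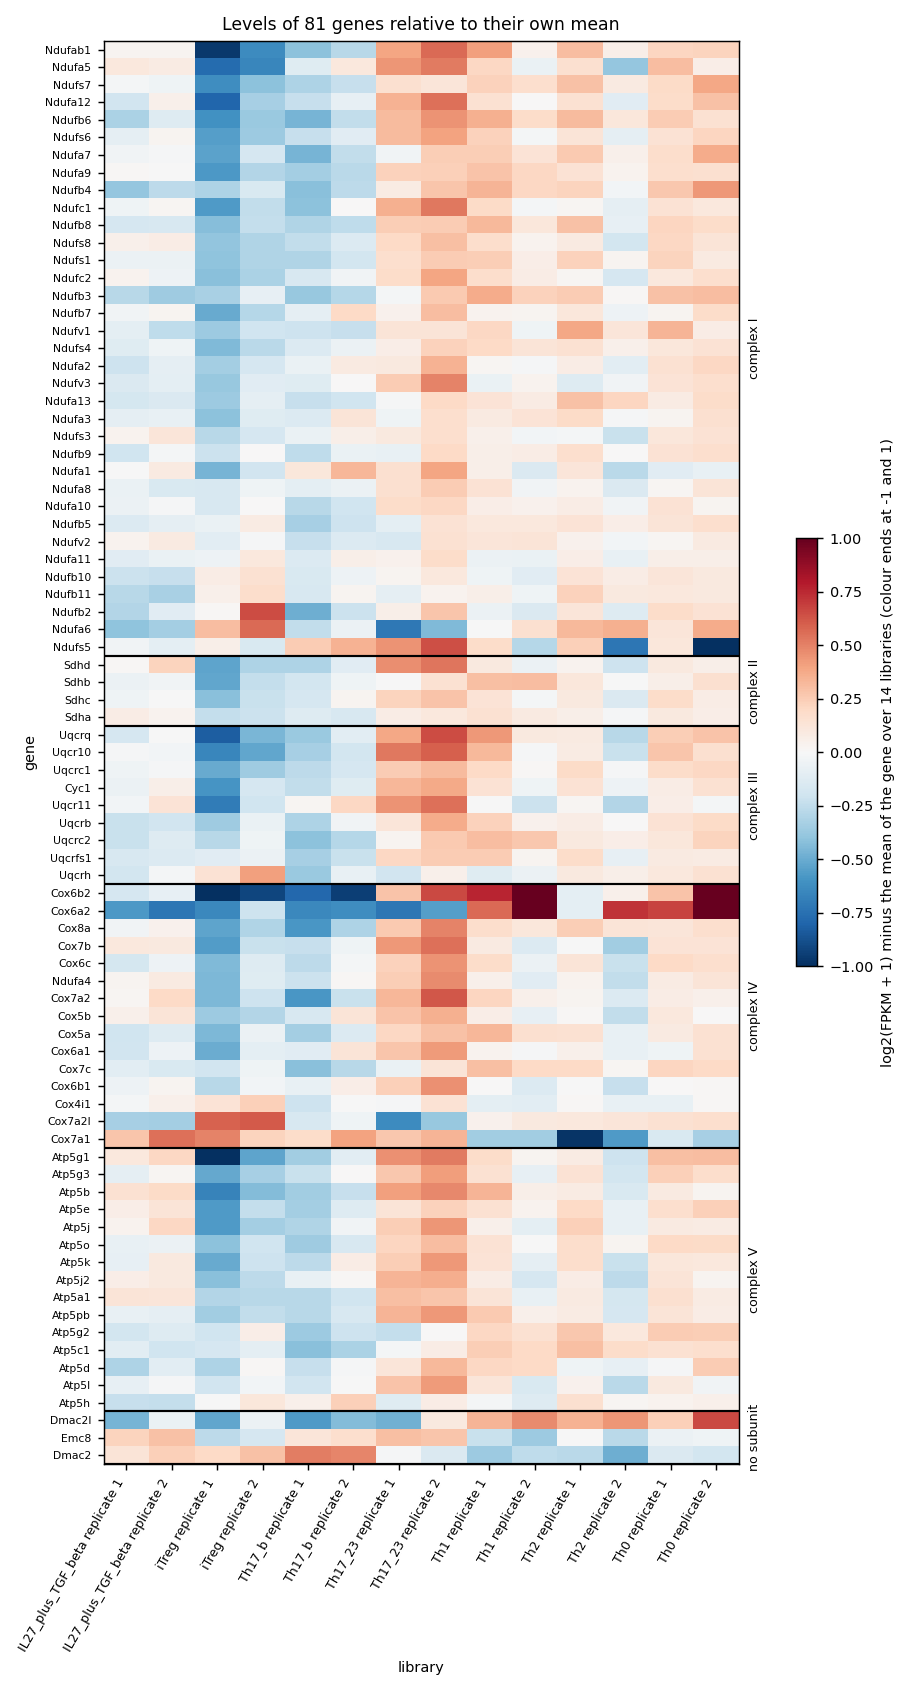
Log2(FPKM + 1) of 81 of the genes minus each gene's mean over the 14 libraries, with libraries as columns and genes as rows, grouped by complex and ordered by the change in iTreg against Th0. Most rows are blue in the iTreg and Th17_b columns and red in the Th17_23 columns. Cox7a2l and Ndufa6 show the reverse in the iTreg and Th17_23 columns, while in the Th17_b columns both lie under their own mean. Against Th0 their log2 changes were 0.44 and 0.19 in iTreg and -0.67 and -0.82 in Th17_23.

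In IL27_plus_TGF_beta against Th0, 26 of 82 genes fell and 3 rose, 31.7% and 3.66%, where 28.9% of all genes fell and 22.0% rose. The median was -0.19, against -0.04. By complex, the genes that fell were 14 of 36 in complex I, 0 of 4 in complex II by limma and also 0 at an unadjusted p under 0.05, 2 of 9 in complex III, 4 of 15 in complex IV and 5 of 15 in complex V. Quantile normalization gave 41 lower, or 50.0% against 27.7% of all genes, and fitting only these media 40, or 48.8% against 28.4%. Leaving out any 1 library of these media lowered the count of lower genes, and their share then lay under that of all genes. The calls of higher genes were lost without replicate 2 of either medium. The median was -0.194 without Th0 replicate 1, -0.198 without IL27_plus_TGF_beta replicate 1, -0.20 without Th0 replicate 2 and -0.191 without IL27_plus_TGF_beta replicate 2.

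The members that fell in IL27_plus_TGF_beta included accessory subunits of the membrane arm of complex I. Ndufb4 had 63.7 and 69.7 FPKM in IL27_plus_TGF_beta and 101 and 113 in Th0 (-0.68 ± 0.11, adjusted p = 0.00085). Ndufb3 had 61.8 and 58.3 in IL27_plus_TGF_beta and 91.9 and 92.8 in Th0 (-0.61 ± 0.12, adjusted p = 0.0023), and Ndufb11 had 93.6 and 90.5 in IL27_plus_TGF_beta and 123 and 122 in Th0 (-0.41 ± 0.09, adjusted p = 0.0038). For these 3 genes both IL27_plus_TGF_beta libraries were under both Th0 libraries, and Ndufb3 and Ndufb11 were chosen after their values were seen. Uqcrc2 changed by -0.35 ± 0.08, adjusted p = 0.0059, and Atp5g2 by -0.41 ± 0.10, adjusted p = 0.0085. The Atp5g2 call did not survive the loss of Th0 replicate 1 (-0.36, adjusted p = 0.068), nor that of IL27_plus_TGF_beta replicate 2 (-0.40, adjusted p = 0.054). Atp5b, by contrast, had 623 and 639 FPKM in IL27_plus_TGF_beta and 594 and 569 in Th0 and was not called.

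Against iTreg, 36 of 82 genes were higher in IL27_plus_TGF_beta and 8 lower, 43.9% and 9.76%, where 38.5% of all genes were higher and 28.0% lower. The median was 0.23 against 0.08. Quantile normalization gave 29 higher and 20 lower, 35.4% and 24.4%, near 34.0% of all genes higher and under 32.8% lower. The median was then 0.04. Scaling to 1 median gave 34 higher and 11 lower, 41.5% and 13.4%, against 34.9% and 32.4% of all genes. The share of higher genes lay under that of all genes without iTreg replicate 1 or either IL27_plus_TGF_beta library, and above it without iTreg replicate 2. The median was 0.15 without iTreg replicate 1 and 0.33 without iTreg replicate 2. It was 0.225 without IL27_plus_TGF_beta replicate 1 and 0.224 without IL27_plus_TGF_beta replicate 2. All 4 genes of complex II were higher, among them Sdhd, with 71.0 and 81.9 FPKM in IL27_plus_TGF_beta and 48.3 and 56.6 in iTreg (0.54 ± 0.12, adjusted p = 0.0027). The calls of Sdhb and Sdhc were lost without iTreg replicate 1 (adjusted p = 0.0747 and 0.256) or IL27_plus_TGF_beta replicate 1 (adjusted p = 0.061 and 0.0965), that of Sdhc also without IL27_plus_TGF_beta replicate 2 (adjusted p = 0.154) and with no filter or either scaling (adjusted p = 0.0536 to 0.0665), and that of Sdha with quantile normalization (adjusted p = 0.101). Ndufab1 rose by 0.82 ± 0.15, adjusted p = 0.0008, Atp5g1 by 0.92 ± 0.15, adjusted p = 0.00046 and Atp5b by 0.72 ± 0.12, adjusted p = 0.00045. The last 3 calls held in all alternatives. Among the lower in IL27_plus_TGF_beta were Cox7a2l, Ndufa6 (-0.81 ± 0.07, adjusted p = 1.2e-05) and Ndufb11 (-0.42 ± 0.09, adjusted p = 0.0021). The media differ in IL-27, in the dose of TGF-β, in IL-2 and in the antibodies to IL-2 and IL-4, which cannot be told apart.

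Against Th17_b, which had the same dose of TGF-β, 9 genes were higher in IL27_plus_TGF_beta and 4 lower, 11.0% and 4.88%, where 16.7% of all genes were higher and 22.0% lower. The order of the shares of higher genes turned when only these media were fitted, with 28 genes higher and 9 lower (34.1% higher, against 24.7% of all genes), and with scaling to 1 median, with 26 higher and 2 lower (31.7% higher, against 23.8%). Quantile normalization gave 16 higher and 9 lower, 19.5% and 11.0%, where 20.3% of all genes were higher and 21.0% lower. The median was 0.11, against -0.01 over all genes, and was 0.04 without Th17_b replicate 1, 0.19 without Th17_b replicate 2, 0.06 with quantile normalization and 0.17 with scaling. With any 1 library of these media left out, the shares of higher and of lower genes both lay under those of all genes. Cox8a had 311 and 329 FPKM in IL27_plus_TGF_beta and 213 and 258 in Th17_b (0.45 ± 0.10, adjusted p = 0.0064), and missed the threshold without Th17_b replicate 1 (0.35, adjusted p = 0.071). Atp5b, at 623 and 639 FPKM in IL27_plus_TGF_beta and 439 and 478 in Th17_b, was called (0.46 ± 0.12, adjusted p = 0.013) and missed it without Th17_b replicate 1 (adjusted p = 0.10) and without either IL27_plus_TGF_beta library (adjusted p = 0.055 and 0.084).

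Few or none of the subunit genes were called in Th1 or Th2 cells. In Th1 against Th0, limma called 0 of 82 genes in either direction, where 6.41% of all genes were higher and 7.62% lower. At an unadjusted p under 0.05, where no share of all genes is given for Th1 or Th2, 0 were higher and 5 lower. The median was -0.07 against -0.05 over all genes. Without Th1 replicate 1 the median was -0.15, and without Th1 replicate 2 it was 0.04. In Th2 against Th0, 0 were higher and 2 lower, where 5.64% of all genes were higher and 12.3% lower, and at an unadjusted p under 0.05, 0 were higher and 9 lower. The 2 lower genes were Cox6b2 and Cox7a1. More genes were lower without Th2 replicate 1, and fewer without any other library of Th2 or Th0. Their share stayed under that of all genes each time. The 6 comparisons with Th0 share its libraries, so their values are not independent of each other.

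The isoforms of complex IV that are known from other tissues were low or near 0. Cox6b2, the testis form of Cox6b1, had 4.20 and 4.54 FPKM in IL27_plus_TGF_beta, 1.34 and 2.09 in iTreg, 2.40 and 2.05 in Th17_b, 6.13 and 8.24 in Th17_23, 8.94 and 13.0 in Th1, 4.48 and 5.05 in Th2 and 6.14 and 10.8 in Th0. The iTreg and Th17_b libraries were the lowest, and the changes from Th0 were -1.77 ± 0.17, adjusted p = 3.1e-05 in iTreg and -1.51 ± 0.17, adjusted p = 7.2e-05 in Th17_b. In IL27_plus_TGF_beta the change was -0.77 ± 0.17, adjusted p = 0.0046, a call that needed Th0 replicate 2 (without it -0.52, adjusted p = 0.052) and IL27_plus_TGF_beta replicate 2 (without it -0.66, adjusted p = 0.051). Cox6b1 itself stood far higher per length, at 256 ± 31.8 FPKM in iTreg and 285 ± 1.93 in Th0, and was not called in that comparison. The call of Cox6b2 in Th2 (-0.67 ± 0.17, adjusted p = 0.026) was lost without Th2 replicate 1 (adjusted p = 0.058), Th2 replicate 2 (adjusted p = 0.18) or Th0 replicate 2 (adjusted p = 0.22), and in 4 of the other alternatives (adjusted p = 0.0689 to 0.107). That of Cox7a1 in Th2 (-0.53 ± 0.15, adjusted p = 0.039) was lost without Th2 replicate 1 (adjusted p = 0.211), Th0 replicate 1 (adjusted p = 0.25) or Th0 replicate 2 (adjusted p = 0.0586), and in 4 of the other alternatives (adjusted p = 0.0729 to 0.151).

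Cox6a2, the heart and muscle form of Cox6a1, had 0.109 and 0 FPKM in IL27_plus_TGF_beta, 0.0564 and 0.423 in iTreg, 0.0525 and 0.0701 in Th17_b, 0 and 0.127 in Th17_23, 1.44 and 3.60 in Th1, 0.538 and 1.71 in Th2 and 1.64 and 3.15 in Th0. All libraries with TGF-β or IL-6 added lay at or under 0.423 FPKM and the others at or above 0.538. It passed the level filter through Th0, Th1 and Th2 and stood under 1 FPKM on average in the other 4 media, so its levels are given with no test, although the counts of lower genes against Th0 in those 4 media include it. Cox7a1, the heart and muscle form of Cox7a2, ran the other way. It had 3.61 and 4.58 FPKM in IL27_plus_TGF_beta, 4.37 and 3.44 in iTreg, 3.32 and 4.02 in Th17_b, 3.59 and 3.82 in Th17_23, 2.00 and 1.99 in Th1, 0.927 and 1.57 in Th2 and 2.42 and 2.03 in Th0. The same 8 libraries were the highest, at 3.32 FPKM or more, and the others reached at most 2.42. The calls against Th0 ran from 0.53 ± 0.15 in Th17_b to 0.66 ± 0.15 in IL27_plus_TGF_beta, and all were lost without Th0 replicate 2 (0.39 to 0.51, adjusted p = 0.059 to 0.13). They were also lost without replicate 2 of IL27_plus_TGF_beta (adjusted p = 0.060), replicate 1 of iTreg (adjusted p = 0.072), replicate 2 of Th17_b (adjusted p = 0.10) and either replicate of Th17_23 (adjusted p = 0.067 to 0.070).

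Cox4i2, the lung form that low oxygen raises, stayed at or under 0.298 FPKM in every library, while the common form Cox4i1 had 375 and 402 FPKM in iTreg and 324 and 343 in Th0. The Cox4i1 groups did not overlap, and it was called higher in iTreg (0.22 ± 0.07, adjusted p = 0.027). That call was lost when any of the 4 libraries was left out (0.20 to 0.24, adjusted p = 0.067 to 0.10) and when only these media were fitted (adjusted p = 0.080). Ndufa4l2, a target of HIF-1 in low oxygen, reached at most 0.0768 FPKM, against 174 and 219 FPKM in iTreg and 252 and 260.1 in Th0 for its relative Ndufa4. Cox8c, a testis form, reached at most 0.191 FPKM, and Cox8b and Cox7b2 were listed at 0 in all libraries. Ndufa4, first taken for a complex I subunit and now placed in complex IV, fell in iTreg (-0.39 ± 0.14, adjusted p = 0.029), a call lost without iTreg replicate 1 (adjusted p = 0.23), Th0 replicate 1 (adjusted p = 0.11) or Th0 replicate 2 (adjusted p = 0.094), with no filter (adjusted p = 0.064) and with scaling to 1 median (adjusted p = 0.060).

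The 3 genes that encode no subunit were called in several media. Dmac2, which takes part in building the membrane arm of complex I, had 15.0 and 14.8 FPKM in Th17_b and 9.18 and 8.90 in Th0 (0.66 ± 0.09, adjusted p = 0.00021), and rose in iTreg too (0.41 ± 0.09, adjusted p = 0.0032). Dmac2l, a small protein tied to the ATP synthase, had 1.33 and 1.55 in Th17_b and 3.08 and 4.46 in Th0 (-0.95 ± 0.12, adjusted p = 0.00017), and fell in IL27_plus_TGF_beta (-0.72 ± 0.12, adjusted p = 0.001), iTreg (-0.74 ± 0.12, adjusted p = 0.00064) and Th17_23 (-0.64 ± 0.12, adjusted p = 0.0025). Emc8, a subunit of the membrane protein insertion complex of the endoplasmic reticulum, had 6.62 and 7.01 FPKM in IL27_plus_TGF_beta and 4.43 and 4.82 in iTreg (0.47 ± 0.09, adjusted p = 0.0013).

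Other mitochondrial genes were counted beside the subunits from lists chosen by function. In iTreg against Th0, where 41.0% of all genes were lower and 22.7% higher, 29 of 47 assembly factors of the complexes were lower and 0 higher (0 also at an unadjusted p under 0.05), with a median of -0.39, and 17 of 21 genes of the tricarboxylic acid cycle and pyruvate entry were lower and 2 higher, with a median of -0.45. Of 78 mitochondrial ribosomal proteins, which serve the synthesis of the subunits that mitochondrial DNA encodes, 60 were lower and 2 higher (median -0.56), and of 16 carriers, pores and other inner membrane proteins 9 and 1 (median -0.32). Of 17 nuclear regulators of mitochondrial genes, 12 were lower and 0 higher (0 also at an unadjusted p under 0.05), with a median of -0.60. The median over all genes in this comparison was -0.13. Fumarase, Fh1, averaged 30.6 ± 4.89 FPKM in iTreg and 72.8 ± 2.71 in Th0 (-1.23 ± 0.13, adjusted p = 5.5e-05). Cytochrome c, Cycs, which carries electrons between complexes III and IV, averaged 20.0 ± 3.13 FPKM in iTreg and 37.9 ± 0.162 in Th0 (-0.90 ± 0.15, adjusted p = 0.00068), and the ribosomal protein gene Mrps28 8.18 ± 3.31 FPKM in iTreg and 28.5 ± 0.445 in Th0 (-1.73 ± 0.19, adjusted p = 6.3e-05).

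Among the regulators, Lrpprc, which keeps mitochondrial messenger RNAs stable, averaged 8.95 ± 0.773 FPKM in iTreg and 20.7 ± 1.18 in Th0 (-1.13 ± 0.10, adjusted p = 1.8e-05). Ppargc1b, a coactivator of mitochondrial genes, averaged 0.688 ± 0.0275 FPKM in iTreg and 1.91 ± 0.165 in Th0. These values are given with no test, since Ppargc1b passed the level filter through the media other than iTreg. The 17 regulators counted in iTreg against Th0 nevertheless include it. In IL27_plus_TGF_beta it was higher than in Th0 (0.72 ± 0.09, adjusted p = 0.00012). Hif1a, the low-oxygen factor that favours glycolysis, was lower in iTreg, with 31.7 ± 3.03 FPKM in iTreg and 76.0 ± 5.90 in Th0 (-1.24 ± 0.08, adjusted p = 2.2e-06). In IL27_plus_TGF_beta it rose, with 168 ± 9.30 FPKM in IL27_plus_TGF_beta and 76.0 ± 5.90 in Th0 (1.13 ± 0.08, adjusted p = 2.6e-06), and it rose also in Th17_b (1.40 ± 0.08, adjusted p = 7.2e-07) and in Th17_23 (1.09 ± 0.08, adjusted p = 6.5e-06).

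In Th17_23 against Th0 the mitochondrial ribosomal proteins rose in 35 and fell in 5 of 78, where 26.6% of all genes rose and 23% fell, and the carriers rose in 8 and fell in 1 of 16. Mrpl20 averaged 98.5 ± 3.63 FPKM in Th17_23 and 47.8 ± 2.40 in Th0 (1.03 ± 0.15, adjusted p = 0.00052) and Cycs 72.2 ± 7.51 FPKM in Th17_23 and 37.9 ± 0.162 in Th0 (0.91 ± 0.15, adjusted p = 0.0011). Assembly factors rose in 14 and fell in 8 of 47, 5 of 21 tricarboxylic acid cycle genes rose and 3 fell, and regulators rose in 5 and fell in 0 of 17 (1 at an unadjusted p under 0.05). Sco1, a copper chaperone of complex IV assembly, averaged 9.89 ± 0.179 FPKM in Th17_23 and 3.04 ± 0.424 in Th0 (1.43 ± 0.11, adjusted p = 1e-05), and rose in IL27_plus_TGF_beta as well, with 9.66 ± 0.185 FPKM in IL27_plus_TGF_beta and 3.04 ± 0.424 in Th0 (1.40 ± 0.11, adjusted p = 6.1e-06). In Th17_b against Th17_23, where 32.5% of all genes were lower and 23.5% higher, 61 of 78 ribosomal proteins were lower and 1 higher, and among the cycle genes 16 of 21 were lower and 0 higher (0 also at an unadjusted p under 0.05). Etfb, a subunit of the flavoprotein that feeds electrons from fat oxidation into the chain, averaged 35.8 ± 0.754 FPKM in Th17_b and 102 ± 12.9 in Th17_23 (-1.47 ± 0.14, adjusted p = 3.4e-05), and citrate synthase, Cs, 78.3 ± 5.29 FPKM in Th17_b and 121 ± 8.97 in Th17_23 (-0.62 ± 0.07, adjusted p = 9.5e-05).

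In Th17_b against Th0, where 29.2% of all genes fell and 25.5% rose, the cycle genes fell in 15 and rose in 1 of 21, the assembly factors fell in 20 and rose in 5 of 47, the ribosomal proteins fell in 31 and rose in 4 of 78, the carriers fell in 7 and rose in 1 of 16 and the regulators fell in 6 and rose in 3 of 17. Nubpl, an iron-sulfur factor for complex I assembly, averaged 3.57 ± 0.295 FPKM in Th17_b and 9.54 ± 0.448 in Th0 (-1.21 ± 0.12, adjusted p = 2.2e-05). In IL27_plus_TGF_beta against Th0, where 28.9% of all genes fell and 22.0% rose, the cycle genes fell in 13 and rose in 2 of 21, the assembly factors fell in 17 and rose in 6 of 47, the ribosomal proteins fell in 17 and rose in 4 of 78, the carriers fell in 5 and rose in 0 of 16 (0 also at an unadjusted p under 0.05) and the regulators fell in 1 and rose in 4 of 17. Fh1 averaged 39.9 ± 1.72 FPKM in IL27_plus_TGF_beta and 72.8 ± 2.71 in Th0 (-0.85 ± 0.13, adjusted p = 0.00057). The lists were chosen with results of these data known, and their counts describe them with no test of a list.

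**Figure D5:**
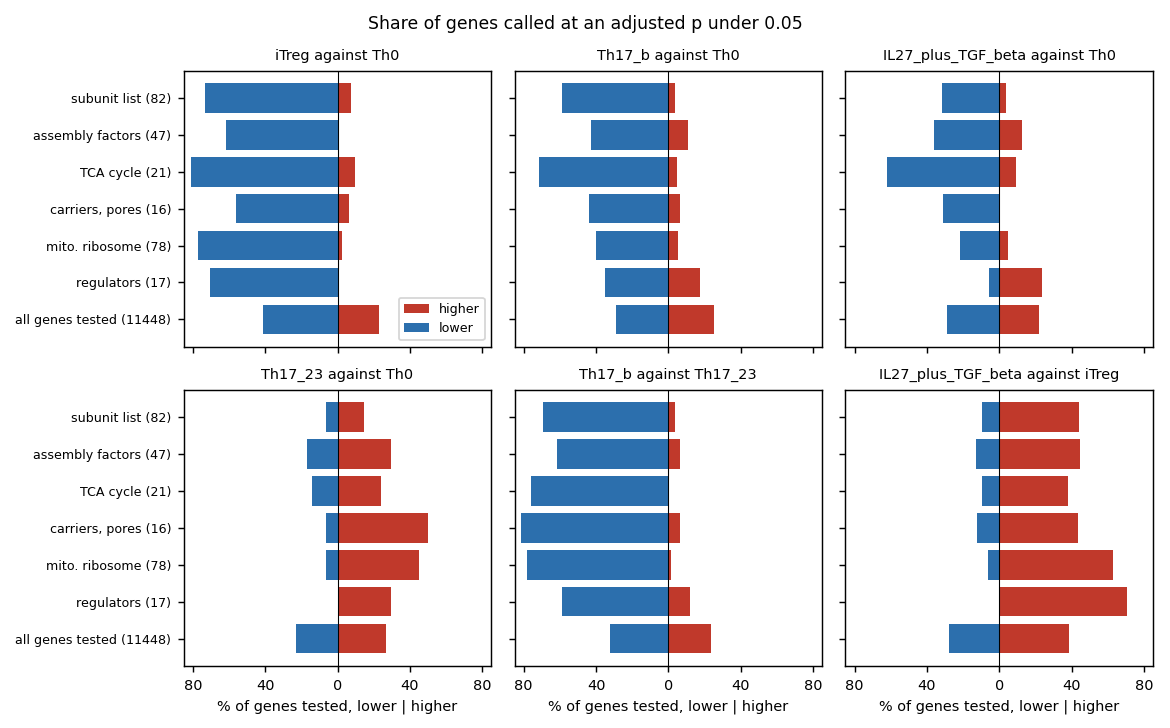
Share of genes called lower (to the left, blue) and higher (to the right, red) at an adjusted p under 0.05, in percent of the genes tested, for the 82 genes, 5 other lists and all genes, in 6 comparisons. In iTreg against Th0 the 82 genes reach 73.2% lower, against 41.0% of all genes, and in Th17_23 against Th0 14.6% higher, against 26.6%.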

How the data were processed

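RNA of 14 libraries, 2 for each of 7 media, was measured by sequencing. The authors deposited FPKM values per transcript in 2 tables, 1 for each replicate number, per the file headers. The submitters' processing notes name TopHat2 2.0.3, Cufflinks 1.3.0 and the build mm9, with no roles. The sources used here do not say if 1 scaling covers both tables. Whether the counting used strand is not stated there either, so overlapping genes cannot be told apart. Read counts are not in use here, so no counting interval is given.

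FPKM was summed over the transcripts of a gene. Of 30028 transcripts, 96.1% were named through their accession and RefSeq, and the others by the tables' symbol. The 11448 genes that reached a mean of 1 FPKM in some medium were tested as log2(FPKM + 1) with limma 3.58.1 in R 4.3.3, over all 14 libraries, with medium and table as terms and a trended prior, and p-values were adjusted by Benjamini-Hochberg over all of them. The fit was tested on simulated data. Promoters are from RefSeq, build GRCm38.p6, and no coordinates of mm9 were used.

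The members and lists were chosen with earlier results of these data known. Genes to name were drawn from the 3 most abundant genes of each complex, up to 4 called genes a comparison with the largest change and the same sign in both tables, all of complex II, tissue forms with their common partners, the c ring genes, symbols that are no subunit, genes beside the filter, and up to 3 genes a list and comparison by p. Not all of these are described. Ndufv3, Atp5k and the levels of Cox6a1, which are among the most abundant, are left out, though the counts include these genes. Others are said in the text to be chosen after their values were seen. Alternatives were a fit with no replicate block, a pseudocount of 0.1, no filter on low values, quantile normalization, scaling to 1 median, the highest transcript of a gene, a fit of the compared media alone and leaving out each library. The values of 1 member and 1 marker are not reported here, though the counts include them.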

Additional observations from a re-analysis of the deposited data

How the results depend on the processing

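No named change reversed: of 3146 alternative fits of 286 called changes, 2703 kept the call and 443 lost it, 317 of these by leaving out 1 library, and the pseudocount of 0.1 lost none. Quantile normalization gave 41 of the 82 genes lower in IL27_plus_TGF_beta, 1 higher in Th1, 10 higher in iTreg, 7 higher in Th17_b and 19 lower in Th17_23, each against Th0, and 16 higher and 9 lower in IL27_plus_TGF_beta against Th17_b, 20 lower in IL27_plus_TGF_beta against iTreg and 6 higher in Th17_b against Th17_23. Scaling to 1 median gave 1 lower in Th2 and 8 lower in Th17_23 against Th0, and 26 higher and 2 lower in IL27_plus_TGF_beta against Th17_b. A fit of the compared media alone gave 40 lower in IL27_plus_TGF_beta, 1 lower in Th2 and 21 higher in Th17_23 against Th0, and 28 higher and 9 lower in IL27_plus_TGF_beta against Th17_b. With no filter on low values 0 were lower in Th2 and 4 higher in Th17_23, and the highest transcript gave 1 lower in Th2. Above the share of all genes were the 41 and 40 lower in IL27_plus_TGF_beta (50.0% and 48.8%, against 27.7% and 28.4%). So were the 26 and 28 higher in IL27_plus_TGF_beta against Th17_b (31.7% and 34.15%, against 23.8% and 24.65%). The 21 higher in Th17_23 were near it (25.6% against 25.5%), and the other counts given here lay under it. The cause was not tested. Only changes called in the main fit entered the count of reversals, and some genes were named for the same sign in both tables. A reversal was therefore unlikely from the start.

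Leaving out 1 library gave 0 to 3 higher and 10 to 14 lower in IL27_plus_TGF_beta, 0 either way in Th1, 0 higher and 0 to 5 lower in Th2, 3 to 5 and 36 to 61 in iTreg, 1 to 3 and 20 to 37 in Th17_b, and 0 to 4 and 4 to 5 in Th17_23, against Th0. It gave 1 to 4 higher and 0 to 2 lower in IL27_plus_TGF_beta against Th17_b, 16 to 43 and 6 to 8 in IL27_plus_TGF_beta against iTreg, and 3 higher and 28 to 52 lower in Th17_b against Th17_23.

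The correlation of the deviations of same-numbered libraries ran from -0.142 to 0.36 over 21 pairs. The median was 0.141, and 15 pairs were over 0.1. The replicate number entered the main fit as the table term, and it is not taken to mean that samples were paired. With no replicate block, 23 genes were lower in IL27_plus_TGF_beta, 1 in Th2, 58 in iTreg, 44 in Th17_b and 5 in Th17_23 against Th0, 2 in IL27_plus_TGF_beta against Th17_b, 8 in IL27_plus_TGF_beta against iTreg and 55 in Th17_b against Th17_23. In that order these were 28.05%, 1.22%, 70.7%, 53.7%, 6.10%, 2.44%, 9.76% and 67.1%. Of all genes, 25.6%, 8.72%, 37.7%, 25.6%, 19.0%, 18.1%, 25.6% and 28.9% were lower. The depth in reads is known only relative to 1 library, and 2 libraries a medium limit the precision.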
